A study of Mus musculus with 272 samples.

Results

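The alpha and beta tubulin genes described here are 4 alpha members (Tuba1a, Tuba1b, Tuba1c and Tuba4a) and 5 beta members (Tubb2a, Tubb2b, Tubb4b, Tubb5 and Tubb6). They were chosen by name, with no measured value in the rule but with earlier results of these data known. All 9 had a row among the 15771 genes kept from the 15854 symbols of the expression table. Mouse germinal vesicle (GV) oocytes, metaphase II (MII) oocytes, zygotes, 2-cell, 4-cell and 8-cell embryos, morulae and blastocysts were compared, giving 8 stages. Each stage had 4 transcriptome libraries, each from a pool of 20 oocytes or embryos, and 3 sucrose gradients of about 100 oocytes or embryos, each cut into 10 fractions that were sequenced separately, for 272 libraries in all. The labels give no strain, age, genotype or treatment for any group. All gradients shared cycloheximide, which halts ribosomes on messenger RNA, in the lysis buffer and in the sucrose. Every sample is a pool, so a value is the mean of many oocytes or embryos, and nothing in the labels ties the replicates of a stage to separate collections. The p-values below therefore measure only the spread between these samples, which may be technical.

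Alpha and beta tubulin proteins join into the heterodimer from which microtubules, and so the meiotic and mitotic spindles, are built. Mammals carry several genes, called isotypes, for each subunit. The isotypes differ mostly in the acidic carboxy-terminal tail that motors and modifying enzymes read. Tubulin messenger RNA is also known for autoregulation: when free dimer is abundant, Ttc5 binds the first residues of the tubulin chain as it leaves the ribosome, and the message being translated is degraded. In the mouse egg a large store of maternal messenger RNA is degraded during meiotic maturation and after fertilization, while embryonic transcription takes over at the 2-cell stage. Among the members, Tuba1a is prominent in neurons, Tuba1b and Tubb5 are broadly expressed in dividing cells, and Tubb2b is prominent in the developing brain. Tuba4a is the alpha gene whose product lacks the encoded terminal tyrosine that tyrosine ligase and the vasohibins act on elsewhere.

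The coding starts are shown because the autoregulation signal lies in the first residues of the protein. They are from GENCODE M21 transcripts on GRCm38, and capitals mark the first 4 codons.
Tuba1a: ATGCGTGAGTGCatctccatccatgtt
Tuba1b: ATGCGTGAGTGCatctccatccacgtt
Tuba1c: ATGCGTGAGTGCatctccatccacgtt
Tuba4a: ATGCGCGAGTGCatttcagtccatgtg
Tubb2a: ATGCGCGAGATCgtgcacatccaggcg
Tubb2b: ATGCGAGAGATCgtgcacattcaggcg
Tubb4b: ATGAGGGAGATCgtgcacctgcaggct
Tubb5: ATGAGGGAAATCgtgcacatccaggcc
Tuba1b and Tuba1c had the same 27 bases here, while the 4 beta members shown differed from each other.

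The coding ends of 6 members are shown because they encode the tail in which the isotypes differ most. Capitals mark the stop codon.
Tuba1c: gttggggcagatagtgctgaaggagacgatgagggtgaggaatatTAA
Tuba4a: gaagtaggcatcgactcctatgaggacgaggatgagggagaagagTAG
Tubb2a: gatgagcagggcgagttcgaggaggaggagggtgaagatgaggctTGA
Tubb2b: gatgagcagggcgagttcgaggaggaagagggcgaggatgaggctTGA
Tubb4b: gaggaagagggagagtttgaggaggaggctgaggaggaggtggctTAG
Tubb5: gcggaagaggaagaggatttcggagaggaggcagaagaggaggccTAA
The Tubb2a and Tubb2b ends were near copies, while the Tuba1c and Tuba4a ends differed widely.

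Close copies make some single-gene values uncertain. Coding identity was 98.3% between Tuba1a and Tuba1b, 97.9% between Tuba1b and Tuba1c and 97.1% between Tuba1a and Tuba1c, genes that all lie on chromosome 15. Of all stretches of 150 bases (the read length) in the transcript, 54.7% for Tuba1a, 57.9% for Tuba1b and 46.7% for Tuba1c also occurred in another gene. Tubb2a and Tubb2b, both on chromosome 13, were 96.5% identical in coding sequence, and 27.9% of the Tubb2a stretches were shared. For Tubb4b on chromosome 2 the share was 16.8%, all with the pseudogene Tubb4b-ps1 (14.2 CPM in GV oocytes and at most 2.47 CPM as a mean of any later stage), and for Tubb5 (chromosome 17) and Tubb6 (chromosome 18) it was 0%. Tuba4a on chromosome 1 shared 45.7% of its stretches with the overlapping gene Stk16 and 0% of those within the coding sequence. How reads that fit more than 1 gene were counted is not given in the sources used here, so sums over the Tuba1 and Tubb2 genes are given beside the single genes.

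Values are in CPM, the reads of a gene per 1000000 reads of its library, and so are relative to the library total. Less tubulin RNA per cell, fewer cells of a kind and a larger total of other RNA therefore cannot be told apart. Transcriptome libraries held 11.2 to 24.3 M reads (1 M is 1000000) and fractions 0.0102 to 43.2 M reads, the shallowest being first fractions. Of the 270 member values in the fractions of a stage, 40 were at 0 reads at the 4-cell stage, 37 at the 8-cell and 14 at the 2-cell stage, and the other stages had 0 to 6. Stage markers followed the labels in the transcriptomes: the summed CPM of oocyte genes such as Zp3 and Gdf9 was 16330 to 19240 in GV oocytes and 6.89 to 12.1 in blastocysts, and that of the trophectoderm genes Cdx2, Krt8 and Krt18 was 1936 to 2534 in blastocysts. The oocyte genes were higher in the fractions of 4-cell (median 615.9 CPM) and 8-cell embryos (299.2 CPM) than in their transcriptomes. There they summed to 45.0 to 54.9 and 37.8 to 46.6 CPM. The cause of this gap was not tested. Of 12 cumulus and granulosa cell markers 5 were in the table, and their summed CPM of 41.9 to 75.6 in the oocyte and zygote transcriptomes, mostly from Cyp19a1, was at most 21.7 in the transcriptomes of later stages. In the fractions it had a median of 30.7 CPM in GV oocytes and at most 14.2 at any other stage, with single fractions as high as 377.8 CPM in GV oocytes and 274.2 CPM in 4-cell embryos. The part of these cells in the tubulin values was not tested.

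In the transcriptomes GV oocytes held the most tubulin RNA in proportion to the library. The 9 members summed to 3053, 3090, 3380 and 3637 CPM in the 4 GV libraries. The sum was 586.1 ± 121.9 CPM (SD, n = 4) at the MII stage and 368.9 ± 63.5 in zygotes and stood at 651.1 ± 153.5, 626.2 ± 56.1 and 432.2 ± 29.7 at the 2-cell, 4-cell and 8-cell stages. Morulae had 568.1 ± 33.4 CPM and blastocysts 1341 ± 184, above every library of the stages between. The GV sum was 8.92 times that of zygotes, the lowest stage mean in the transcriptomes, although zygote and 8-cell libraries overlapped. The fractions gave another order. In fraction 3 the mean sum was 11500 CPM in GV oocytes, 4333 in MII oocytes, 7724 in zygotes and 1418 in 8-cell embryos. In fraction 9 it was 1815 CPM in MII oocytes and 1405 CPM in zygotes. For 7 members the highest stage mean was in GV oocytes, while Tuba1b and Tubb5 were highest in blastocysts. The ratio of the highest to the lowest stage mean ran from 9.80 for Tuba1c and 18.1 for Tuba1a to 61.0 for Tubb6, 63.5 for Tubb2b and 158.9 for Tubb2a. Only some stages could be ordered: for Tuba1a all neighbours in the order overlapped in their libraries except the zygote, which was lowest. For Tubb2a the order was GV, MII, 2-cell, zygote, blastocyst, morula, 4-cell and 8-cell, and only the MII with 2-cell and 4-cell with 8-cell libraries overlapped.

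**Figure D1:**
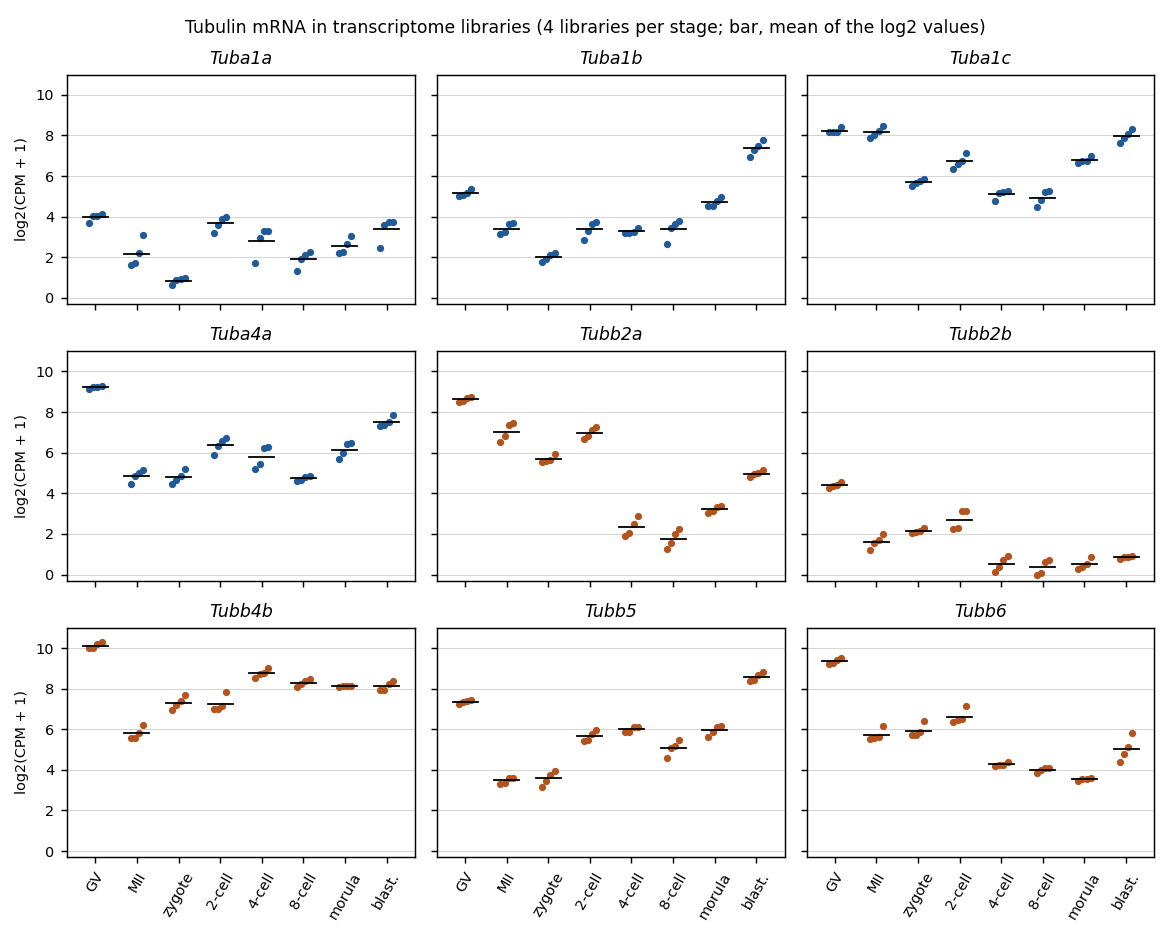
Transcriptome level of each member as log2(CPM + 1) on the y axis at 8 stages on the x axis, 1 panel per gene, with 1 point per library (n = 4) and a bar at the mean. Tuba4a, Tubb4b, Tubb5 and Tubb6 drop steeply between GV and MII oocytes, Tuba1c stays level there, and Tubb2a and Tubb6 are low from the 4-cell stage on.

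During meiotic maturation 8 of the 9 members fell in the transcriptomes and Tuba1c did not pass the test. A change is the difference of mean log2(CPM + 1) with its standard error (SE), and a gene was called where limma's adjusted p over all genes was under 0.05 and the change at least 1 in size. Consecutive transitions share the libraries of the stage between them and are not independent. Tuba4a stood at 558.5, 593.3, 609.2 and 621.3 CPM in the GV libraries and at 20.7 to 34.4 CPM in the MII libraries, far apart. Its log2 change was -4.36 ± 0.22 (SE, limma adjusted p 4.3e-19). Tuba1c, the alpha gene that did not follow, had GV libraries at 283.5, 286.6, 287.2 and 337.3 CPM and MII libraries at 235.4, 262.5, 302.2 and 355.2 CPM. These overlapped, and its log2 change was -0.06 ± 0.17 (SE, limma adjusted p 0.83). Tuba1b went from 31.5 to 40.7 CPM to 7.88 to 11.7 CPM, a log2 change of -1.74, and Tuba1a from 12.1 to 16.4 CPM to 2.12 to 7.54 CPM, a log2 change of -1.80.

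The beta members fell by very different amounts in the same interval. Tubb4b stood at 1007, 1018, 1171 and 1257 CPM in GV oocytes and at 46.4, 47.2, 55.5 and 72.6 CPM in MII oocytes. No library overlapped, and the log2 change was -4.32 ± 0.17 (SE). Tubb5 (150.5 to 174 CPM in GV, 9.03 to 11.3 in MII) changed by -3.87 on the log2 scale and Tubb6 (584.3 to 736.3 CPM in GV, 44.7 to 70.5 in MII) by -3.63. Tubb2a fell less, from 365 to 432.8 CPM to 89.9 to 174.6 CPM, a log2 change of -1.60 ± 0.21 (SE), and Tubb2b, a low gene at 17.9 to 22.3 CPM in GV oocytes, changed by -2.78. The median log2 change of the members was -2.78 against -0.11 for all genes tested, and 34.5% of all genes were called in this transition. Every one of the 8 calls held without any 1 library, with edgeR and under quantile normalization. The fractions did not show every fall. Tubb2a in fraction 2 had a mean of 636.2 CPM in GV and 1219 CPM in MII oocytes. Its means were lower at the MII stage only in fractions 8 (322.7 and 276.6 CPM) and 10 (209.3 and 198.5 CPM).

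Between MII oocytes and zygotes Tubb4b rose and 4 members fell (Tuba1a, Tuba1b, Tuba1c and Tubb2a), where 10.3% of all genes were called. Tubb4b stood at 123.3, 147.3, 166.3 and 205.8 CPM in zygotes, all above the MII libraries, a log2 change of 1.52 ± 0.17 (SE). Tuba1c, which had kept its level through maturation, stood at 44.4 to 56.6 CPM in zygotes, all below the MII libraries, a log2 change of -2.47 ± 0.17 (SE, limma adjusted p 2.1e-13). The members' median log2 change was -0.07 and that of all genes was 0.

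In 2-cell embryos 6 members were higher than in zygotes, with 33.9% of all genes called. Tubb5 rose most among the beta members, from 7.89 to 14.5 CPM to 42.0 to 62.4 CPM, a log2 change of 2.08 ± 0.18 (SE). Tuba1a rose from 0.542 to 0.945 CPM to 8.10 to 14.8 CPM, a log2 change of 2.81. The other 4 were Tuba1b, Tuba1c, Tuba4a and Tubb2a, with log2 changes from 1.03 to 1.60. The median log2 change was 1.30 for the members and 0.37 for all genes. After quantile normalization the changes of Tuba1b (0.67) and Tuba1c (0.96) were no longer at least 1, and with edgeR those of Tuba1c (0.73) and Tubb2a (0.99) were not. The Tuba1c call was also lost without 1 2-cell library (0.88) or zygote library C (0.97).

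From the 2-cell to the 4-cell stage the beta isotypes moved in opposite directions. Tubb4b stood at 126.7, 128.3, 139.5 and 229.9 CPM in 2-cell and at 366.4, 420.7, 440.4 and 508.5 CPM in 4-cell embryos, without overlap, a log2 change of 1.51 ± 0.17 (SE). Tubb2a stood at 102.4, 113.3, 138.5 and 153 CPM in 2-cell and at 2.67, 3.11, 4.56 and 6.45 CPM in 4-cell embryos. That log2 change of -4.66 ± 0.21 (SE, limma adjusted p 1.3e-20) was the largest of any member in any transition of the transcriptomes. Tubb6 stood at 81.3, 85.8, 88.6 and 141.3 CPM in 2-cell and at 17.5 to 19.8 CPM in 4-cell embryos, a log2 change of -2.34, and Tubb2b changed by -2.16. Of the alpha members only Tuba1c was called, from 81.2 to 141.9 CPM to 26.6 to 37.3 CPM, a log2 change of -1.61 ± 0.17 (SE). In this transition, the most widespread of the consecutive ones, 64.8% of all genes were called. The members' median log2 change was -0.86 and that of all genes 0.02.

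Little passed the test between 4-cell and 8-cell embryos, where Tuba4a alone was called. Its libraries stood at 35.3, 43.1, 74.7 and 76.1 CPM in 4-cell and at 23.1 to 28.1 CPM in 8-cell embryos, a log2 change of -1.06 ± 0.22 (SE, limma adjusted p 0.0021). The members' median log2 change was -0.48 against -0.11 for all genes, and 2.6% of all genes were called. The Tuba4a call was lost under quantile normalization (-0.87), with edgeR (-0.99) and without 4-cell library B (-0.90) or D (-0.91).

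Several members rose in the morula and more in the blastocyst. Between 8-cell embryos and morulae 4 members rose (Tuba1b, Tuba1c, Tuba4a and Tubb2a), with 11.9% of all genes called. Tuba1c stood at 21.4 to 37.1 CPM in 8-cell embryos and 98.2 to 125.3 CPM in morulae, a log2 change of 1.84 ± 0.17 (SE). Tubb6 had its lowest stage mean in morulae, at 9.83 to 11.3 CPM against 13.5 to 16.3 CPM in 8-cell embryos, without overlap but with a log2 change of -0.47 that was not called. The beta sum overlapped between these stages, at 363.3 ± 36.4 and 357.1 ± 12.3 CPM (SD, n = 4). From morula to blastocyst 6 members rose (Tuba1b, Tuba1c, Tuba4a, Tubb2a, Tubb5 and Tubb6), with 26.8% of all genes called. Tuba1b stood at 21.9, 22.0, 26.5 and 30.9 CPM in morulae and at 120.9, 157.1, 179.5 and 216.7 CPM in blastocysts, a log2 change of 2.67 ± 0.22 (SE). Tubb5 stood at 48.6 to 70.4 CPM in morulae and at 331.2, 345.2, 403.2 and 449.2 CPM in blastocysts, a log2 change of 2.63 ± 0.18 (SE). Both genes were well clear of their morula libraries, while Tubb4b, at 273 to 282.4 CPM and then 240.5 to 326.4 CPM, overlapped. The members' median log2 changes were 0.85 and 1.36, against 0.07 and 0.16 for all genes. With edgeR the log2 change of Tuba1c from morula to blastocyst was 0.94.

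Set against GV oocytes, blastocysts had a different tubulin set. Tuba1b (log2 change 2.22 ± 0.22, SE) and Tubb5 (1.22 ± 0.18) were higher. Tuba4a, Tubb2a, Tubb2b, Tubb4b and Tubb6 were lower, with log2 changes from -1.71 for Tuba4a to -4.31 for Tubb6. Tuba1a and Tuba1c were not called, at -0.59 and -0.25. Of all genes 69.1% were called between these stages, so being called is not particular to the tubulins. The median log2 change was -1.71 for the members and 0.32 for all genes. The Tubb5 rise was 0.93 with edgeR.

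**Figure D2:**
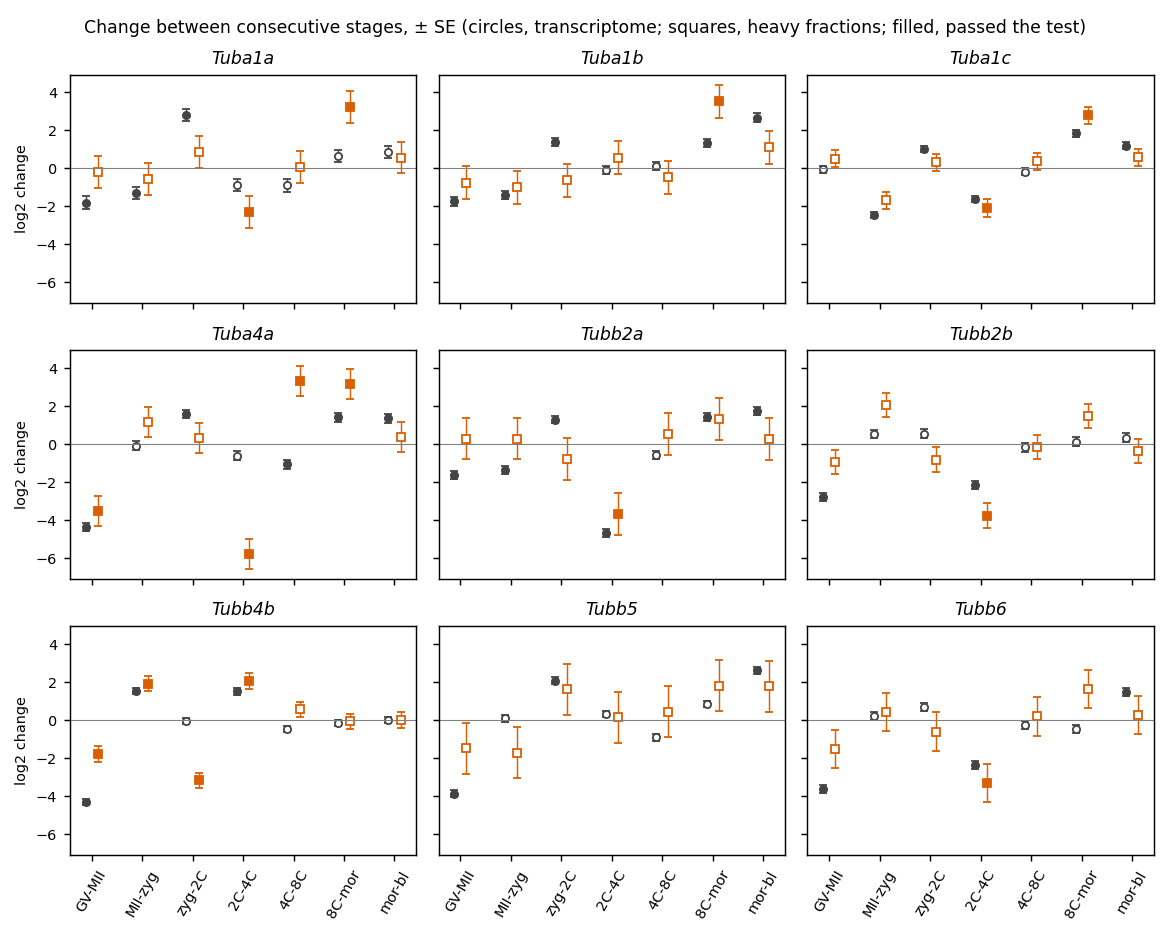
Log2 change of each member ± SE on the y axis for the 7 consecutive transitions on the x axis, circles for transcriptomes and squares for the heavy fractions, filled where called. The transcriptome falls of GV to MII and the opposite moves of Tubb4b and Tubb2a from 2-cell to 4-cell stand out, and standard errors are wider for the heavy fractions.

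Dividing CPM by transcript length allows isotypes to be compared with each other, except that how reads shared between genes were counted is not known. On this per-length scale Tuba4a made up 54.0% ± 1.63 (SD, n = 4) of the alpha sum in GV oocytes and 6.16% ± 0.988 in MII oocytes. Tuba1c made up 89.1% ± 1.03 of the alpha sum in MII oocytes, the highest share of any alpha gene at any stage. By the blastocyst the alpha pool was spread over Tuba1c (43.4% ± 1.70), Tuba1b (32.7% ± 3.57) and Tuba4a (22.1% ± 3.64). In 4-cell embryos Tuba4a (43.2% ± 12.5) and Tuba1c (37.7% ± 7.69) overlapped in their shares. Tubb4b held 50.2% ± 0.619 of the per-length beta sum in GV oocytes, 22.9% in MII oocytes, 58.1% in zygotes, 38.0% in 2-cell, 87.9% ± 2.00 in 4-cell and 89.3% in 8-cell embryos. Tubb2a was the leading beta gene in MII oocytes at 54.1% ± 4.87 and held under 1% in the 4-cell (0.831%) and 8-cell (0.720%) transcriptomes. In blastocysts Tubb4b (48.7% ± 3.96) and Tubb5 (40.6% ± 5.04) shared most of the sum. With coding length in place of transcript length, an alternative added after seeing the data, that last order turned: Tubb5 held 52.8% ± 5.16 and Tubb4b 38.3% ± 3.99. The share of Tuba4a in GV oocytes was then 63.2% ± 1.52.

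**Figure D3:**
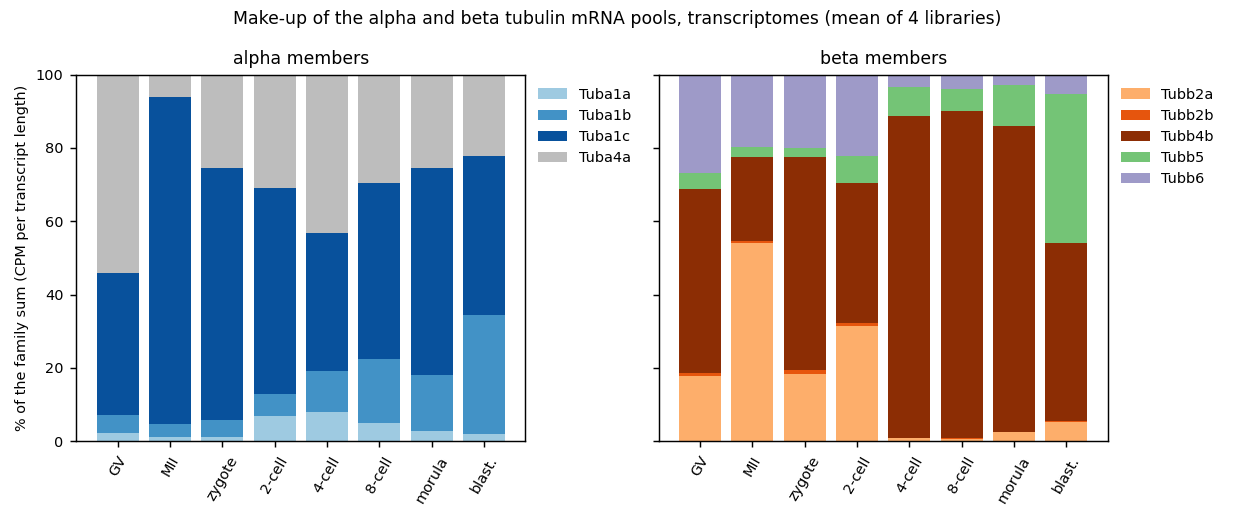
Stacked bars of each gene's share, in percent, of the alpha or the beta sum of CPM per transcript length in the transcriptomes, mean of 4 libraries, at 8 stages on the x axis. Tuba1c fills most of the alpha bar in MII oocytes, and Tubb4b most of the beta bar in 4-cell embryos, 8-cell embryos and morulae.

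Sums over the near copies cover only reads that were exchanged between those copies. Shared reads that were dropped, or counted for genes outside the sum, would be missing from the sum as well. The Tuba1 genes also share stretches with genes outside their sum, Gm49450 among them. The Tuba1 genes summed to 348.2 ± 30.2 CPM (SD, n = 4) at the GV stage, 302.6 ± 55.6 at the MII stage, 54.7 ± 5.77 in zygotes, 43.2 ± 11.5 in 8-cell embryos and 432.9 ± 91.8 in blastocysts, and Tuba1c supplied most of it at each of these stages. The Tubb2 sum was 417.9 ± 33.6 CPM in GV oocytes, 132.5 ± 23.8 in 2-cell embryos and 4.68 ± 1.96 in 4-cell embryos, so in the transcriptomes the drop after the 2-cell stage was present in the sum of both copies. Single fractions differed in this step. The mean Tubb2 sum went from 570.1 to 321.6 CPM in fraction 4 and from 321.4 to 0.376 CPM in fraction 7. Tubb2b had 0 reads in 1 of the 8-cell libraries, which allows up to 0.203 CPM. Per length, the alpha sum was 0.282 ± 0.0175 of the beta sum at the GV stage and 1.08 ± 0.0767 of it at the MII stage. This ratio was lowest at the 4-cell (0.150) and 8-cell (0.148) stages and stood at 0.822 ± 0.0607 in blastocysts. These ratios have the same limit as the sums, and no test was made on sums or ratios.

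The gradients address where in the sucrose the messages lay. Heavy fractions, 6 to 10, lie where messages with several ribosomes usually sediment, and light fractions are 1 to 5. The labels only number the fractions, so this division was set here. A heavy value is the mean CPM of the 5 fractions of a gradient, and since every fraction was scaled to its own total it is not an amount of RNA.

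Tubb4b lay in lighter fractions in oocytes and early embryos than in morulae and blastocysts. Its heavy mean was below its light mean in 15 of 15 gradients from GV oocyte to 4-cell embryo and above it in 6 of 6 gradients of morula and blastocyst. In GV gradients A, B and C the heavy means were 952.3, 673 and 638.7 CPM and the light means 2333, 2219 and 2780 CPM. In blastocysts the heavy means were 515.6, 717.7 and 412.7 CPM and the light means 278.1, 463 and 306.7 CPM. Sides did not overlap in GV oocytes or in morulae. In blastocysts they did, with 412.7 CPM heavy in gradient C below 463 CPM light in gradient B. Of the 8-cell gradients, 2 of 3 had the heavy mean below the light mean. The difference had turned in direction by the blastocyst, though the turn itself was not tested. Fraction 2 held 24.8% ± 2.83 (SD, n = 3) of its summed CPM at the GV stage and 28.5% ± 5.12 at the MII stage, the top fraction of all 6 gradients. Fraction 10 was the top one in all 6 gradients of morula (17.3% ± 1.39) and blastocyst (20.4% ± 1.89), against 3.91% ± 0.915 in GV oocytes. Its mean fraction number, weighted by CPM, was 4.02 ± 0.157 in GV oocytes and 6.36 ± 0.239 in blastocysts, while the median over all genes was 5.728 and 5.463.

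**Figure D4:**
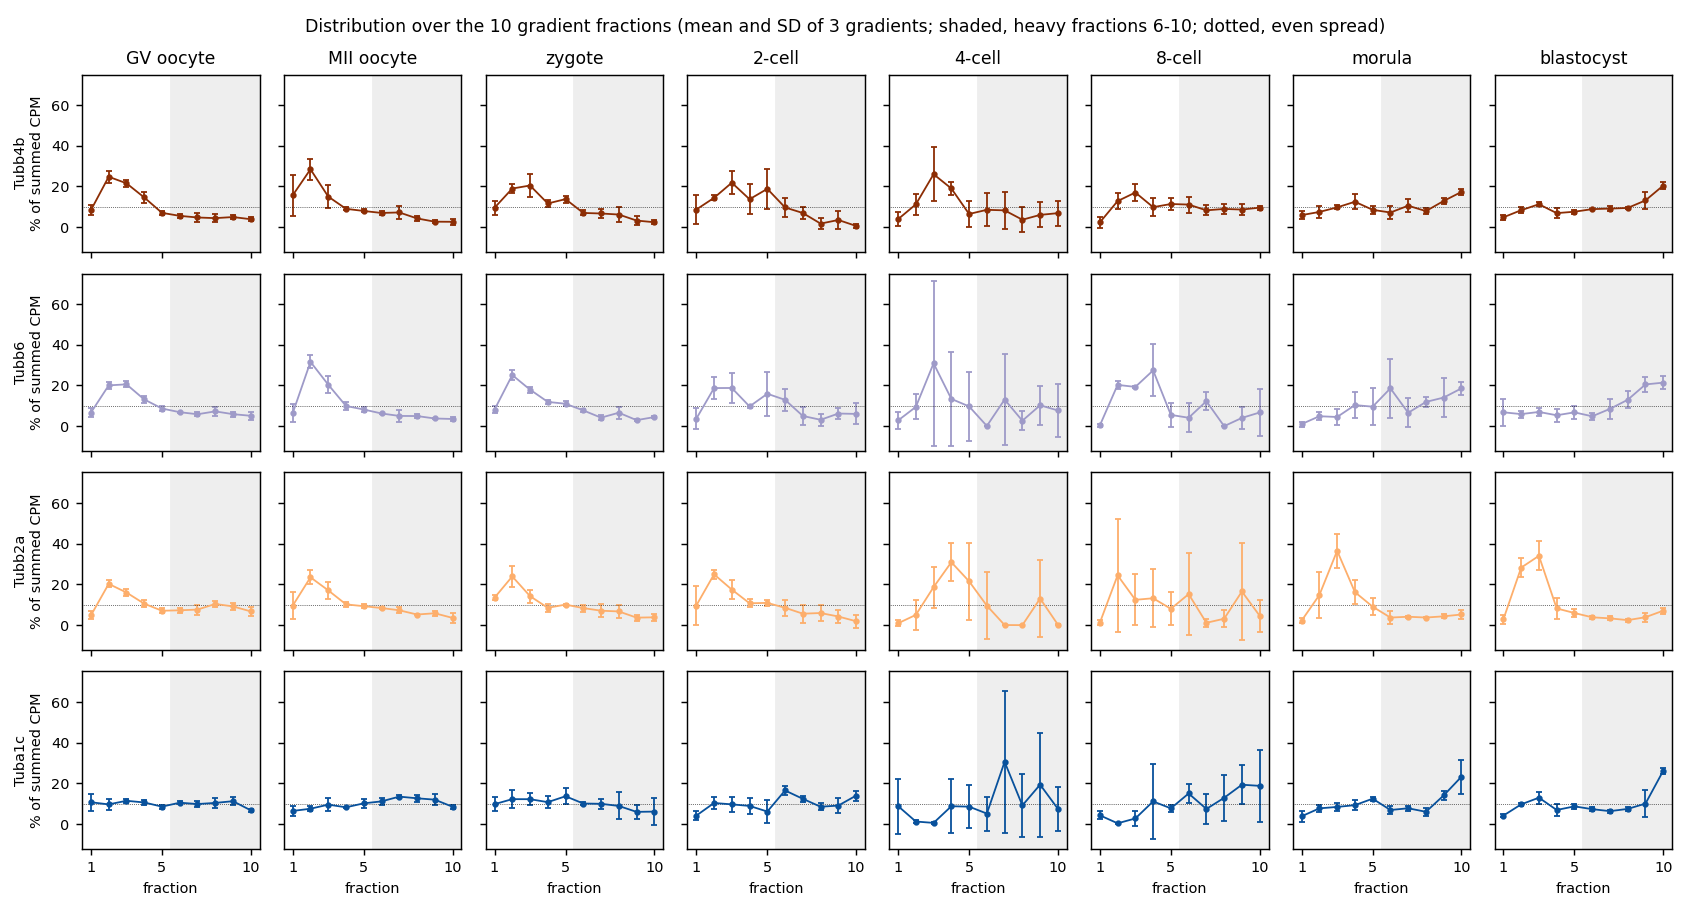
Share of a gene's CPM summed over 10 fractions, in percent, against fraction number for Tubb4b, Tubb6, Tubb2a and Tuba1c at 8 stages, mean ± SD of 3 gradients, with the heavy fractions shaded. Tubb4b and Tubb6 peak in light fractions in oocytes and in fraction 10 in blastocysts, while Tubb2a keeps a light peak in blastocysts.

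In the test of heavy against light within a stage, Tubb4b was lower on the heavy side at 5 stages. The log2 differences, each ± 0.33 (SE), were -1.71 in GV oocytes (limma adjusted p 0.022), -1.68 in MII oocytes (0.0012), -1.61 in zygotes (0.0025), -1.80 in 2-cell (0.00012) and -1.08 in 4-cell embryos (0.019). It was the only member called in the first 4 of these stages, where 0.0725%, 3.23%, 3.01% and 18.2% of all genes were called. With the libraries of a stage fitted alone, Tubb6 was also lower on the heavy side in GV oocytes (-1.16), MII oocytes (-1.71) and zygotes (-1.52), Tubb5 in GV oocytes (-1.28) and zygotes (-2.44), Tubb2a in MII oocytes (-1.21) and zygotes (-1.27), Tubb2b in MII oocytes (-1.41) and Tuba4a in zygotes (-1.37). The MII result of Tubb4b held in every alternative. The GV call was lost on leaving out any 1 of the GV gradients A, B and C (limma adjusted p 0.091, 0.26 and 0.48). The zygote call was lost without gradient C (-1.15), the 4-cell call without gradient A (-0.57) or B, and the 2-cell call with the 2-cell libraries fitted alone (limma adjusted p 0.054).

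In 4-cell embryos 5 of the 9 members were called, the most of any stage, with 16.3% of all genes called. Tuba1c was higher on the heavy side, at 36.4, 162.1 and 76.6 CPM against 14, 13.96 and 72.4 CPM in gradients A, B and C, a log2 difference of 1.61 ± 0.51 (SE). Tuba4a, at 4.13, 0.418 and 45 CPM heavy against 20.1, 154.6 and 59.7 CPM light, had a log2 difference of -3.07 ± 0.68 (SE). Tubb2a (-3.05) and Tubb2b (-2.21) were also lower on the heavy side, and Tubb2b had 0 reads in all heavy fractions of gradient B, which allows up to 0.0422 CPM over their summed reads. Both sides of a gradient come from the same lysate, and with the gradient as a block Tubb5 (-2.72, limma adjusted p 0.042) and Tuba1a (-1.97, 0.033) were called as well. These 3 gradients differed widely among themselves. Without gradient B the log2 differences of Tuba4a (-1.22), Tuba1c (0.70) and Tubb2a (-0.92) were not called, that of Tubb2b was lost without gradient C or under quantile normalization (-0.97), and with the 4-cell libraries fitted alone 0 genes of the table were called.

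At the 3 later stages Tuba1c in 8-cell embryos was the only member called. In 8-cell embryos Tuba1c was again higher on the heavy side, at 107.9, 77.2 and 118.9 CPM against 85, 20.1 and 20.1 CPM, a log2 difference of 1.58 ± 0.51 (SE, limma adjusted p 0.043), with 9.05% of all genes called. This call was lost in 13 of the 24 fits that each left out 1 gradient. In morulae and blastocysts limma called 0 members, with 5.81% and 2.74% of all genes called. At an unadjusted p under 0.05 stood 1 member in morulae, Tubb2a, and 2 in blastocysts, Tubb2a and Tubb2b. The sides did not overlap for 4 members in morulae (Tuba4a, Tubb2a, Tubb4b and Tubb6) and for 6 in blastocysts (Tuba1b, Tuba4a, Tubb2a, Tubb2b, Tubb5 and Tubb6). With the libraries of a stage fitted alone, limma called Tubb6 (log2 difference 1.19) and Tubb2a (-1.89) in morulae. In blastocysts such a fit called Tubb6 (1.09), Tubb5 (1.00), Tuba4a (-1.09), Tubb2b (-1.21) and Tubb2a (-1.94). Over all genes these fits called 905 higher and 705 lower of 10962 tested in morulae, and 1108 higher and 1308 lower of 11130 in blastocysts. The median difference over the 9 members went from -0.67 in GV oocytes, -1.01 in MII oocytes, -1.27 in zygotes, -1.02 in 2-cell and -2.04 in 4-cell embryos to -0.53 in 8-cell embryos, 0.13 in morulae and 0.37 in blastocysts, where all genes had medians from -0.26 to 0.08.

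The isotypes did not share 1 place in the gradient. Tubb2a lay lower on the heavy side in 24 of 24 gradients, and its fraction 3 still held 36.5% ± 8.46 (SD, n = 3) in morulae and 34.1% ± 7.13 in blastocysts. Tubb2b was lower on the heavy side in 22 of 24 and Tuba4a in 21 of 24 gradients, and in blastocysts 30.0% ± 6.58 of Tuba4a was in fraction 3. Tuba1c was higher on the heavy side in 19 of 24 gradients, and fraction 10 held 6.78% ± 0.708 of it in GV oocytes and 26.2% ± 1.37 in blastocysts. Its near copies did not share this place. Tuba1b was lower on the heavy side in 15 of 24 gradients, and in 6 of 6 of morula and blastocyst. Tuba1a was lower in 12 and higher in 12. The Tuba1 sum was higher on the heavy side in 17 of 24 gradients. Tubb6 resembled Tubb4b: its heavy mean was below the light mean in 14 of 15 gradients up to the 4-cell stage and above it in 6 of 6 of morula and blastocyst. In blastocysts Tubb5, at 428.2, 412.3 and 456.6 CPM heavy against 167, 207.2 and 287.3 CPM light, had 26.4% ± 1.19 in fraction 10. Counts of gradients are a description, since gradients of different stages are not replicates.

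**Figure D5:**
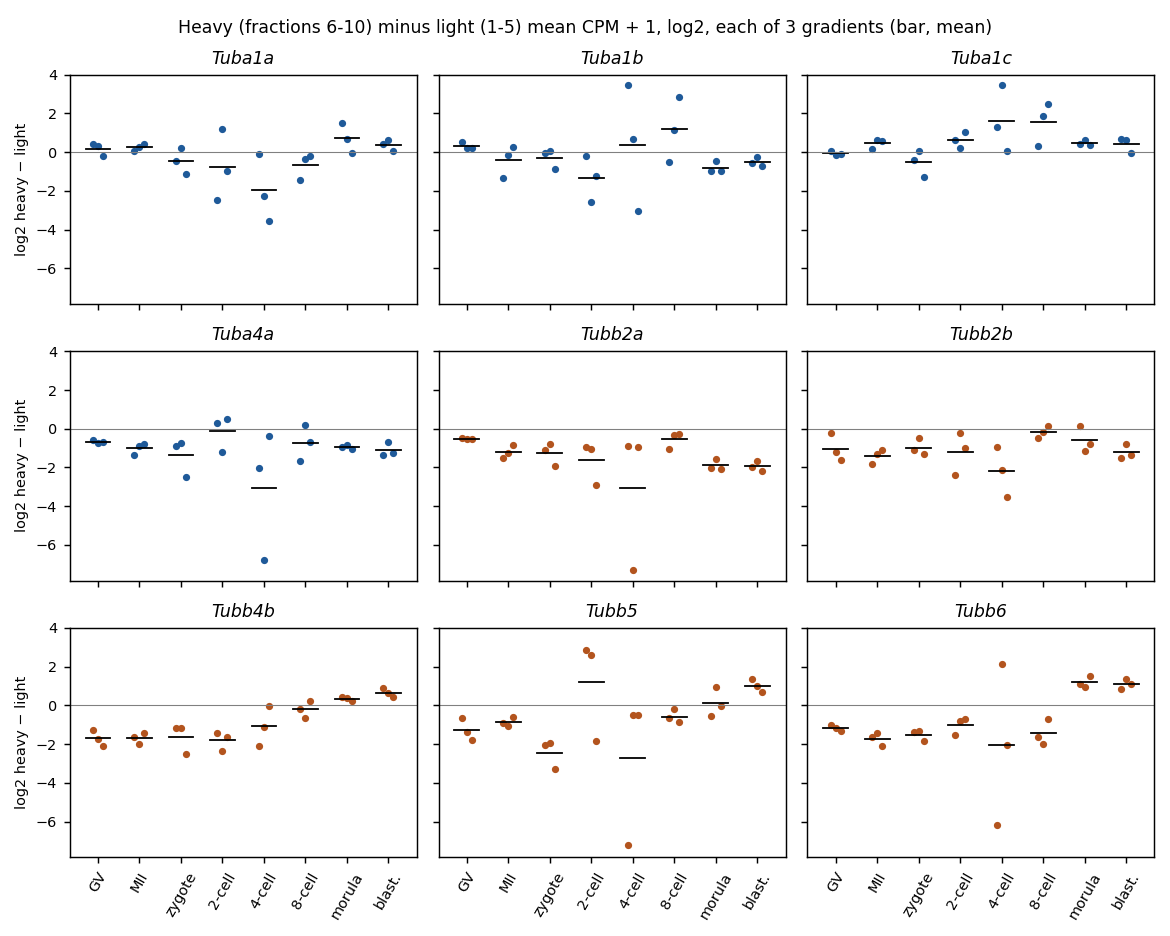
Log2 difference between the heavy and light means of CPM + 1 for each of 3 gradients per stage on the y axis, at 8 stages on the x axis, 1 panel per gene, with 0 marked. Tubb4b and Tubb6 lie below 0 in GV oocytes and above it in morulae and blastocysts, and Tubb2a lies below 0 throughout.

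Between stages, the most members were called on the heavy side from 2-cell to 4-cell embryos, 7 of 9. In the step before, Tubb4b fell on the heavy side from 999.4, 1013 and 536.2 CPM in zygotes to 107.5, 69.8 and 94.0 CPM in 2-cell embryos, with no overlap, a log2 change of -3.18 ± 0.40 (SE, limma adjusted p 7.3e-06). It was the only member called in that transition, with 20.8% of all genes called and medians of -0.61 for the members and -0.51 for all genes. It rose again to 181.7, 428.9 and 677 CPM in 4-cell embryos, a log2 change of 2.06 ± 0.40 (SE, limma adjusted p 0.00029). In that step from the 2-cell to the 4-cell stage 6 members fell, with 37.8% of all genes called. Tuba4a went from 470.6, 212.6 and 533.3 CPM to 4.13, 0.418 and 45 CPM, a log2 change of -5.77 (limma adjusted p 5.8e-06). Tubb2b (-3.76 ± 0.64), Tuba1c (-2.09 ± 0.45), Tubb2a (-3.68 ± 1.10), Tubb6 (-3.32 ± 1.01) and Tuba1a (-2.28 ± 0.84) were the other 5. The members' median was -2.28 and that of all genes -0.06. Tubb6 is the least certain of these: its 4-cell gradients stood at 0.951, 345.8 and 36.2 CPM, and without gradient A its log2 change was -1.36. The Tubb2a call was lost without 4-cell gradient B (-1.72) and that of Tuba1a without 2-cell gradient B (-0.81), 4-cell gradient A or 4-cell gradient C and under quantile normalization (-0.94). With edgeR those of Tubb6 (-1.10) and Tubb2a (-1.49) were also lost, and with the libraries of these stages fitted alone those of Tubb6, Tuba1c, Tubb2a and Tuba1a.

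In the other 5 transitions 0 to 4 members were called on the heavy side. From GV to MII oocytes Tuba4a (1738, 1599 and 1267 CPM to 71.5, 131.4 and 253 CPM, log2 change -3.50 ± 0.79) and Tubb4b (-1.79 ± 0.40) fell, with 4.06% of all genes called. From MII oocytes to zygotes Tubb4b rose (184.5, 154.8 and 343.9 CPM to the zygote values above, log2 change 1.92 ± 0.40), with 1.49% called. From 4-cell to 8-cell embryos Tuba4a rose (3.35, limma adjusted p 0.013), with 6.54% called. Between 8-cell embryos and morulae all 4 alpha members rose, with 7.98% called: Tuba1c from 107.9, 77.2 and 118.9 CPM to 440.7, 1172 and 646 CPM (2.79, limma adjusted p 0.00029), Tuba1b by 3.52 ± 0.87, Tuba1a by 3.24 and Tuba4a by 3.17. From morula to blastocyst limma and edgeR called 0 members and 0 had an unadjusted p under 0.05, with 0.0757% of all genes called. The members' median log2 changes in these 5 transitions were -0.92, 0.30, 0.37, 1.81 and 0.36, against -0.13, 0.04, 0.30, 0.04 and 0 for all genes. The morula call of Tuba1c held without any 1 gradient, and the others did not. The maturation calls were lost without GV A or MII A, that of Tubb4b also without MII B, and its rise in zygotes without MII A or B or zygote A or B. The 8-cell rise of Tuba4a was lost without 4-cell B, and the morula rises without morula B for Tuba1b and without 8-cell C or morula B for Tuba4a and Tuba1a, the last also without 8-cell A. With edgeR the calls of Tuba4a and Tubb4b at maturation (adjusted p 0.17 and 0.18), of Tubb4b in zygotes (0.24), and of Tuba4a at both later steps (0.32 and 0.085) and Tuba1a in morulae (0.079) were lost.

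The isotype make-up of the heavy side differed from that of the transcriptomes at several stages, as a description. In GV oocytes Tubb6 held 45.3% ± 5.25 (SD, n = 3) of the heavy per-length beta sum and Tubb4b 38.5% ± 2.68, while Tubb6 held 26.8% of the transcriptome sum. In 2-cell embryos Tubb4b held 13.8% ± 5.19 of the heavy beta sum, and in 8-cell embryos 87.1% ± 3.20. Tuba1c held 84.5% ± 5.80 of the heavy alpha sum in MII oocytes, where Tuba4a held 9.83%.

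Testing the heavy change against the transcriptome change directly gave 7 calls in 63 tests of members. This sets fraction libraries against transcriptome libraries, and light changes were not tested, so a call need not be particular to the heavy side. The fit also gave both kinds of library the same spread, although the heavy means varied more. The SE of a difference may therefore be too small. For Tuba4a, Tubb2b and Tuba1a it was below the SE of a heavy change alone, so these calls may look firmer than they are. Tubb4b RNA on the heavy side fell less than the transcriptome from GV to MII, a difference of changes of 2.53 ± 0.40 (SE, limma adjusted p 7.2e-06), and fell more from zygote to 2-cell, where its transcriptome change was -0.06, a difference of -3.12 (5.8e-08). In light fraction 2 the mean of Tubb4b also fell in both steps. It was 3979 CPM in GV and 1279 CPM in MII oocytes, and 3215 CPM in zygotes and 292 CPM in 2-cell embryos. Tuba4a fell more on the heavy side from 2-cell to 4-cell, by a difference of -5.17 ± 0.75 (SE, limma adjusted p 5.2e-07), and from 4-cell to 8-cell the difference was 4.41 (3.5e-05). Tubb2b was called at GV to MII (1.85 ± 0.56) and at 2-cell to 4-cell (-1.60), and Tuba1a from 8-cell to morula (2.60 ± 0.80, limma adjusted p 0.039). Of all genes 8.22%, 2.28%, 27.5%, 31.8%, 13.7%, 6.45% and 2.2% were called in the 7 transitions in order, against 2, 0, 1, 2, 1, 1 and 0 of the 9 members. In the MII to zygote transition 1 member, Tubb2b, had an unadjusted p under 0.05, and from morula to blastocyst 0 did. The members' medians were 1.85, 0.74, -1.37, -0.49, 0.95, 1.36 and -0.84, and those of all genes 0.02, 0.03, -0.89, -0.16, 0.40, 0.02 and -0.14. Both Tubb4b calls and that of Tuba4a at 2-cell to 4-cell held in every alternative run for them. The Tubb2b calls were lost with a pseudocount of 0.1, under quantile normalization (1.58 and -0.64) and without GV gradient B or C, MII gradient B or C or MII library C for the first, and without 2-cell gradient B or C, 4-cell gradient B or C or 1 2-cell library for the second. That of Tuba1a was lost in 10 of 56 fits that each left out 1 gradient or library, 8-cell gradients A and C and morula gradients B and C among them.

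Other genes of the tubulin pathway are given by lists, of which the named genes are the largest rise or fall among those called. Of 20 tested folding genes (prefoldin, the chaperonin and the tubulin cofactors) 12 fell from GV to MII, where 34.5% of all genes were called, and 12 rose and 2 fell from the 2-cell to the 4-cell stage, where 64.8% were called. Pfdn6, a prefoldin subunit, went from 50.3 to 0.56 CPM at maturation, a log2 change of -5.04, and from 10.95 to 338.3 CPM after the 2-cell stage, a log2 change of 4.85. Tbca, which holds beta tubulin during folding, fell by 1.48 on the log2 scale in that later step. Of 3 genes of tubulin messenger RNA autoregulation, Ttc5 fell from 51.8 to 3.23 CPM at maturation, a log2 change of -3.65. It was called lower again from zygote to 2-cell embryos. From the 2-cell to the 4-cell stage it was called higher, to 8.11 CPM, while Scaper was called lower. Of 8 other tubulins tested, 7 fell from 2-cell to 4-cell embryos and none of them rose. Tubg2, a gamma tubulin of nucleation, went from 196.4 to 2.01 CPM there, a log2 change of -6.03. In the gamma-tubulin ring complex, Mzt2 fell from 41.6 to 1.16 CPM and Nedd1 rose from 206.8 to 448.9 CPM at maturation, where 1 gene of 8 rose and 2 fell. Of 10 tested enzymes that modify tubulin 4 rose and 3 fell from 2-cell to 4-cell embryos, a share near that of all genes, with Svbp, the partner of the vasohibins, from 3.02 to 18.1 CPM and Atat1, the alpha tubulin acetyltransferase, from 38.8 to 5.69 CPM. Of 12 genes of microtubule dynamics 2 rose and 5 fell in the same step, also near the share of all genes, with log2 changes of 3.31 for Stmn3, a stathmin that binds free tubulin, and -5.23 for Mapre2, a plus-end binding protein. These lists had median log2 changes at maturation of -1.60 for folding, -0.51 for autoregulation, 0.21 for other tubulins, 0.49 for the ring complex, -0.26 for modifying enzymes and 0.54 for dynamics, beside -0.11 for all genes.

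The genes whose transcriptome pattern was most like the sums were found by Pearson's r of log2(CPM + 1) over 32 libraries, among 7997 genes of mean CPM at least 10. For the alpha sum they were Fuca1 (r = 0.902), Clec16a (0.902), Smarcal1 (0.893), Arl2 (0.886), a GTPase of the tubulin folding pathway, and Nos1 (0.861). For the beta sum they were Abcf3 (0.965), Mecr (0.939), Usp4 (0.930), Sdhaf2 (0.916) and Cltb (0.916). The libraries of a stage share that stage, so these values describe 8 stages more than 32 independent points.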

How the data were processed

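Messenger RNA was sequenced in 32 transcriptome and 240 fraction libraries with 150-base paired reads, per the labels' protocols. Trim Galore 0.6.7, FastQC, HISAT2 2.2.1, featureCounts 2.0.1, edgeR and the build GRCm39 are listed in the submitters' processing notes, without their roles. The authors deposited a table of CPM for 15854 symbols. In 9 columns the deposited values, recorded here as signal, sum to slightly over 1000000 and were used in the same way. All values came out as whole reads (tolerance 0.05), which gave the depths and the counts for edgeR. 1 of the libraries, fraction 7 of 2-cell gradient B, was left out of the count models. Of groups of identical rows (159 symbols) 1 was kept. Column letters of the 2-cell transcriptomes do not match the labels' letters, so these columns were used as a group.

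limma 3.58.1 (lmFit, eBayes with trend, R 4.3.3) was fitted to log2(CPM + 1) of all genes that reached a CPM of 1 in a number of samples equal to the smallest group. All stages shared 1 fit per family of comparisons, with Benjamini-Hochberg adjustment over all genes tested. A fold change on this scale understates the change of low genes. Calls needed an adjusted p under 0.05 and a change of at least 1. Alternatives were edgeR 4.0.16, quantile normalization, another pseudocount (0.1), no filter, other heavy and light fractions, a replicate block and leaving out each library. Same-letter samples of different stages mostly did not deviate together (median correlation 0.0233 for transcriptomes, -0.00372 for heavy means), so letters were not taken as pairs across stages. Single correlations ran from -0.270 to 0.312 for transcriptomes, 13 of 84 over 0.1. For heavy means they ran from -0.153 to 0.159, 7 of 84 over 0.1. The heavy and light means of a gradient come from the same lysate and did deviate together (median correlation 0.126, 14 of 24 over 0.1). They are therefore pairs, fitted without a block in the main test and with one in the alternative. Scripts used Python 3.11.15, and the fits were tested on simulated data. Sequences and transcript lengths are from GENCODE M21 on GRCm38, and no coordinates were joined to the table. Every member is named. Members and gene lists were chosen with earlier results of these data known, as were the tests and alternatives. Some sequences and genes of the lists are not reported here.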

Additional observations from a re-analysis of the deposited data

Results flagged for a closer look

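In 5 of the 72 groups of 4 transcriptome libraries, 1 library stood apart from the other 3, where chance gives about 1 in 20 groups if they are independent. They are not, since the members share the same libraries. A library that departs as a whole can be counted for several members. Tuba1c was at 337 CPM in 1 GV library, with the others at 284, 287 and 287, and at 26.6 CPM in 1 4-cell library, with the others at 35.5, 36.1 and 37.3. Tubb4b was at 230 CPM in 1 2-cell library against 127, 128 and 140 CPM. Tubb6 was at 70.5 CPM in 1 MII library against 44.7, 47.3 and 48.1 CPM, and at 141 CPM in 1 2-cell library against 81.3, 85.7 and 88.6 CPM. Leaving out any 1 library kept the transcriptome count of called member changes at 41 to 43.

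In 7 cases the change on the heavy side differed from the transcriptome change, by the limma test of the difference of the log2 changes. The light side was not tested in this way. The test gave both kinds of library the same spread, so these calls may look firmer than they are. Tubb4b differed by 2.53 from GV to MII and by -3.12 from zygote to 2-cell. Tubb2b differed by 1.85 from GV to MII and by -1.60 from 2-cell to 4-cell. For Tuba4a the differences were -5.17 between the 2-cell and 4-cell stages and 4.41 between the 4-cell and 8-cell stages, and both of these use the 4-cell gradients, where its heavy means were 4.13, 0.418 and 45 CPM. Tuba1a differed by 2.60 from 8-cell to morula.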

How the results depend on the processing

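Of the member tests, 42 of 72 were called for the transcriptome, 16 of 63 for the heavy side, 10 of 72 for heavy against light and 7 of 63 for the difference of changes. With edgeR 9 heavy changes were called. Fitting just the libraries of the compared stages, 19 heavy against light differences and 19 differences of changes were called. Leaving out 1 library or gradient gave 41 to 43 transcriptome changes, 13 to 18 heavy changes, 8 to 13 heavy against light differences and 6 to 16 differences of changes, the last being 15, 16 and 12 without 4-cell gradients A, B and C. With a replicate block the counts were 17 heavy changes, 12 heavy against light differences (the 10 and 2 more in 4-cell embryos), 31 transcriptome changes (31 without the block, both without 2-cell transitions) and 6 differences of changes (4 without the block). No called change turned in direction under an alternative run. Over all genes, quantile normalization changed the balance of higher to lower calls, from 1334 to 3711 to 3234 to 2578 at GV to MII and from 3684 to 1275 to 2189 to 2529 at zygote to 2-cell in the transcriptomes. Fraction depth had stage medians from 8.50 M reads in 4-cell embryos to 34.3 M reads in blastocysts, and 18.3 M in 8-cell embryos. Of 270 member values a stage, 40 in 4-cell and 37 in 8-cell embryos were at 0 reads, and the cause was not tested.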
